A study of Mus musculus with 22 samples.

Results

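The Toll-like receptor genes are described here across lung monocytes and alveolar macrophages of mice with an inducible surfactant protein C mutation. The members were listed by name, as Tlr1, Tlr2, Tlr3, Tlr4, Tlr5, Tlr6, Tlr7, Tlr8, Tlr9 and Tlr13, and all 10 were matched by Ensembl identifier in both count tables, out of 31116 genes that the tables share. Tlr11 and Tlr12, also carried by mice, were followed beside them. All samples came from C57BL/6 mice labelled SP-CI73T mutant. In this model a tamoxifen-activated Flp-O recombinase placed in the Rosa26 locus removes a neomycin cassette and raises expression of mutant surfactant protein C in the alveolar type 2 epithelium that makes this protein. Groups were control (untreated per the labels), 3 d and 14 d after tamoxifen given by oral gavage to adult mice. For the sequenced monocytes the study describes the controls as oil treated mutants, while its methods pool such mice with tamoxifen treated mice without Flp-O as controls in general, and the labels do not say which the macrophage controls were. Ly6Chi monocytes gave 4 samples in each group, and SigF+CD11b- alveolar macrophages gave 4 control, 3 at 3 d and 3 at 14 d. Nothing in the labels says whether samples of a group came from separate mice, and p-values then measure only the spread between samples, which may be technical.

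Toll-like receptors are membrane proteins that bind molecules typical of microbes and of damaged cells. Tlr1, Tlr2, Tlr4, Tlr5 and Tlr6 act at the cell surface on lipoproteins, lipopolysaccharide and flagellin. Tlr3, Tlr7, Tlr8, Tlr9 and Tlr13 belong to the endosomal branch of the family, which acts on nucleic acids. Nearly all signal through the adaptor Myd88, which leads to NF-kB and to inflammatory cytokines, and the adaptor Ticam1 serves Tlr3 and Tlr4 and leads to type I interferon. In the lung they let macrophages and recruited monocytes sense inhaled microbes.

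Reads were given as raw counts per gene. Totals per sample were 22135815 to 28789639 in control monocytes, 15451460 to 20036958 at 3 d and 21131493 to 27013525 at 14 d. Macrophage totals were 14437070 to 17074863 in controls, 10692871 to 15410838 at 3 d, with the 14 d group the shallowest at 4610720 to 6838893. Levels are given as CPM (counts relative to library size) scaled with trimmed mean of M values (TMM) factors. The CPM of 3 reads ranged from 0.104 to 0.194 among monocyte libraries and from 0.176 to 0.651 among macrophage libraries, a limit that covers counting error only.

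Markers of the sorted cells were present but shifted with time. Monocytes held the monocyte antigen gene Ly6c2 at 2569.5 to 3281 CPM in controls, 2668 to 3459 at 3 d and 1314 to 1789.8 at 14 d, against 1.51 to 3.34 CPM in control macrophages. Macrophages held Siglecf, which encodes the sorting antigen, at 231 to 348 CPM in controls, 124 to 322 at 3 d and 90.1 to 127 at 14 d. At 14 d they also held Itgam, the gene for CD11b, at 54.9 to 102 CPM, against 0.730 to 2.66 in controls, although the sort was on CD11b- cells. Itgam shares 3450 exonic bases (68.7%) on the same strand with the gene Gm49368, and their reads cannot be told apart there. Of 9 alveolar macrophage markers 6 fell in macrophages at 14 d and none rose (4 with scaling factors from genes of mean log2 CPM above 5, called the well-expressed scale), and of 8 Ly6Chi monocyte markers 4 rose and 1 fell (5 and 1 on that scale). In monocytes 1 of these 8 monocyte markers rose and 3 fell at each time (1 and 1 at 3 d and 1 and 3 at 14 d on that scale). Of all tested genes 39.4% were called higher and 22.9% lower in macrophages at 14 d. In monocytes these shares were 36.8% and 14.4% at 3 d and 3.22% and 5.34% at 14 d. The part of these marker shifts in the receptor results was not tested.

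Several library properties moved with the groups. Genes with at least 1 read numbered 24775 to 30865 in control monocytes, 40119 to 41134 in the shallower 3 d libraries and 24829 to 32492 at 14 d, and 21951 to 27616 in control macrophages, 21499 to 26335 at 3 d and 27699 to 30627 in the 14 d libraries with the fewest reads. The part of these differences in the receptor results was not tested. Xist, the RNA of the inactive X chromosome, had 552 to 4260 counts per library in the control and 3 d monocytes and 1 to 6 at 14 d, while 4 Y-linked genes together had 0 to 3 counts in the former and 1949 to 3033 in the latter. In macrophages the same counts were 1747 to 4444 for Xist and 0 to 3 for the Y-linked genes in the control and 3 d libraries, and 8 to 32 and 433 to 966 at 14 d. Sex and the 14 d time point therefore cannot be told apart in either cell type, which bears most directly on Tlr7, Tlr8 and Tlr13, all on the X chromosome. A level-dependent shift also ran through both data sets. In monocytes at 3 d against control the median log2 fold change was 2.82 in the class with a mean log2 CPM of at most 0 and -0.58 in the class above 8, and in macrophages at 14 d it was 3.21 and -0.72. Where a scaling choice matters, a second value is therefore given, with TMM factors computed on genes whose mean log2 CPM exceeded 5, called the well-expressed scale. On that scale the median of all tested genes moved from 0.22 to 0.74 in monocytes at 3 d and from 0.18 to 0.73 in macrophages at 14 d. The numbers of all genes called higher and lower moved with it, from 8215 and 3223 to 9885 and 439 in monocytes at 3 d, from 2677 and 7718 to 432 and 9566 from 3 d to 14 d in monocytes, from 8258 and 4793 to 10374 and 1285 in macrophages at 14 d, and from 7611 and 4195 to 9615 and 1122 from 3 d to 14 d in macrophages. Between the cell types they moved from 6542 and 5245 to 7941 and 3753 in controls, from 936 and 4059 to 394 and 5424 for the difference in the 3 d change, and from 4511 and 5318 to 7585 and 1233 for that at 14 d.

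Signals of other cells were present as well. In sorting monocytes the study gated out resident alveolar macrophages, eosinophils, Ly6G+ neutrophils and CD3+ lymphocytes. Summed CPM of 6 T or NK cell markers was 166, 249, 716 and 572 in control monocyte samples 1 to 4, with Nkg7 the most abundant at 93.9, 147, 461 and 370.3, against 7.92, 122, 21.4 and 21.3 at 3 d and 17.99, 19.5, 13.2 and 19.8 at 14 d. Of these markers 5 fell at 3 d and 4 at 14 d (4 at each time on the well-expressed scale), and none was at 0 in any monocyte sample. Summed CPM of 6 B cell markers in macrophages was 289, 244, 201 and 113 in controls, 553, 330.5 and 993 at 3 d and 338, 201 and 204 at 14 d, with Ighm the most abundant in each library and none at 0. In monocytes the B cell sum was 686, 690.4, 460.01 and 405 in controls, 389.99, 299, 249 and 281 at 3 d and 283, 211, 348 and 281 at 14 d, and 5 of 6 markers fell at each time, with 1 higher at 3 d. The well-expressed scale left 2 lower and 1 higher at 3 d and 4 lower at 14 d. For 8 neutrophil markers the macrophage sum was 68.7, 214, 128 and 89.7 CPM in controls and 1231, 1521 and 378 at 14 d, and for 4 eosinophil markers it was 1.37, 1.90, 1.31 and 0.664 and 101, 28.4 and 107. At 14 d the most abundant neutrophil marker was S100a9 in replicates 1 and 2 and Retnlg in replicate 3 (522, 706 and 127 CPM), Ly6g was at 0 in replicate 3, and Prg2 was the most abundant eosinophil marker (77.3, 18.5 and 82.8 CPM). Monocytes held the neutrophil markers at 291, 203, 286 and 285 CPM in controls, 1365, 667, 856 and 226 at 3 d and 1409.99, 1088, 790.4 and 669.9 at 14 d. Other marker sums moved too. For 5 markers of type 1 conventional dendritic cells the monocyte sum was 68.8, 68.7, 84.4 and 79.7 CPM in controls, 27.99, 33.7, 34.8 and 29.6 at 3 d and 86.9, 94.9, 132 and 146 at 14 d, with Flt3 the most abundant, and the macrophage sum was 19.4, 8.06, 28.8 and 18.99 in controls and 60.1, 65.03 and 19.8 at 14 d, with 3 of 5 called higher. For 4 endothelial markers the macrophage sum was 14.9, 7.75, 16.6 and 11.7 CPM in controls, 28.1, 19.1 and 41.1 at 3 d and 42.2, 33.8 and 31.6 at 14 d, with Pecam1 the most abundant and 3 of 4 called higher at 14 d (4 on the well-expressed scale). For 9 alveolar macrophage markers the monocyte sum was 15029.7, 9039, 10952 and 7446 CPM in controls, 8335, 4289, 7571 and 8973 at 3 d and 15652, 18952, 20988 and 20549 at 14 d, nearly all of it Chil3, with no marker at 0. Of these markers 5 were lower at 3 d than in controls (3 on the well-expressed scale), 1 was higher and 1 lower at 14 d on either scale, and 4 were higher at 14 d than at 3 d (2 on that scale). The sorting antigen gene Siglecf was 3.55 to 29.2 CPM in control monocytes, 0.800 to 6.56 at 3 d and 2.13 to 5.03 at 14 d. For 4 plasmacytoid dendritic cell markers the monocyte sum was 12.1, 31.03, 32.97 and 29.2 CPM in controls, 14.1, 10.2, 23.1 and 12.8 at 3 d and 8.49, 6.76, 9.05 and 9.67 at 14 d, with Ly6d the most abundant and Klk1 at 0 in 1 control library and 1 at 14 d, and the control and 14 d sums did not overlap. Of the 3 tested, Ly6d was lower than control at 3 d and 14 d, and from 3 d to 14 d 1 was lower, Siglech, or all 3 on the well-expressed scale, which also called 2 higher at 3 d than in controls. In macrophages 1 of the 3 was higher at 14 d (2 on that scale), and of 6 of alveolar epithelium 2 were higher and 4 lower (2 and 1). Beside these counts stand the shares of all tested genes given above. In macrophages at 14 d 85.2% of genes with a mean log2 CPM of at most 0 were higher, and 60.1% from 0 to 2. In monocytes at 3 d these were 69.8% and 52.3%, and from 3 d to 14 d 61.9% and 51.8% were lower. Marker counts near these shares are no result about a cell type. None of the dendritic cell type 1, endothelial or epithelial markers was at 0 in any library. The part of these markers in the receptor results was not tested. Because the samples are bulk populations, fewer cells expressing a gene and less RNA per cell cannot be told apart.

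The 10 genes lie on 7 chromosomes of GRCm38, and 3 of them are X-linked. Tlr1 (chr5:64924679-64933563) and Tlr6 (chr5:64952031-64960097) are neighbours on the minus strand, and Tlr8 (chrX:167242696-167264329) and Tlr7 (chrX:167304929-167330558) are another such pair. Tlr13 is at chrX:106143204-106160493, Tlr2 at chr3:83836272-83841767, Tlr4 at chr4:66827584-66930284, Tlr5 at chr1:182954788-182976044, Tlr9 at chr9:106222598-106226883 and Tlr3 at chr8:45395665-45411080. Exonic lengths ran from 3014 bases for Tlr2 to 5556 for Tlr4. Tlr3 shares 381 exonic bases (7.3%) with the antisense gene Gm45542, and since the strand setting of the counting is not given in the sources used here, their reads cannot be told apart there.

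RefSeq promoter windows on GRCm38.p6 were matched for 8 of the 10 genes, with 10 windows in all, Tlr1 and Tlr6 having 2 each. Tlr4 and Tlr7 were not matched. Below are the windows of Tlr13 and Tlr2, the members with the highest levels per exon length in control monocytes and control macrophages, and of Tlr5 and Tlr8, the members with the largest falls in macrophages at 14 d, each 300 bases, 5′ to 3′ on the gene's strand. Capitals mark matches on either strand to the PU.1-like motif GAGGAAG, the TATA box TATAAA or the GC box GGGCGG. These motifs were chosen with the results known.
Tlr13, chrX:106143025-106143324, plus strand: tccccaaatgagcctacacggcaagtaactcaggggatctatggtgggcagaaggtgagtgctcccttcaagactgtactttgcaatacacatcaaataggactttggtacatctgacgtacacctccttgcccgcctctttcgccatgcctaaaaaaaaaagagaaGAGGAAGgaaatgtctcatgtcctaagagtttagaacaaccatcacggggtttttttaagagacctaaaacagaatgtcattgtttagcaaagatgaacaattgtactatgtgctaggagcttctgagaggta
Tlr2, chr3:83841559-83841858, minus strand: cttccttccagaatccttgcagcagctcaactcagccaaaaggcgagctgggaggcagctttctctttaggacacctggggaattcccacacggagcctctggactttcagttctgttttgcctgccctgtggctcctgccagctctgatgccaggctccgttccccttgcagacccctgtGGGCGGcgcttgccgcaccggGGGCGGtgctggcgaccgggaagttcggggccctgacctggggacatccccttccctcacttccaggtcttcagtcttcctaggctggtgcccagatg
Tlr5, chr1:182954538-182954837, plus strand: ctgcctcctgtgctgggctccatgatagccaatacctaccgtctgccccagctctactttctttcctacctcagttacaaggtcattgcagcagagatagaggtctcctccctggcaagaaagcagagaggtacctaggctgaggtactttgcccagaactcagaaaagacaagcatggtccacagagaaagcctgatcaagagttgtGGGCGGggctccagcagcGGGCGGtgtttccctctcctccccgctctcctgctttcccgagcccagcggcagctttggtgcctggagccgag
Tlr8, chrX:167264280-167264579, minus strand: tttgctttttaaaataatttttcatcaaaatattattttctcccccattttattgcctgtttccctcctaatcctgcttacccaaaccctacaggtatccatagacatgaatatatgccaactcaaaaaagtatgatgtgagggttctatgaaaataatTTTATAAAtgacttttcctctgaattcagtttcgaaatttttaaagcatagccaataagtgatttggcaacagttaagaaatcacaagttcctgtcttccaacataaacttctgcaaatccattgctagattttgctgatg
The PU.1-like letters were in 3 of the 10 windows (Tlr1, Tlr9 and Tlr13), against 13.6% of all 32851 windows of this length in the table. The TATA box was in 2 (Tlr6 and Tlr8, against 13.6%) and the GC box in 3 (Tlr2, Tlr3 and Tlr5, against 35.7%). The marked stretch of Tlr8 holds overlapping matches of the TATA box on both strands. No motif was shared by the windows of Tlr5 and Tlr8.

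To see which receptors each population carried at rest, levels in the control groups were compared per kilobase of exon, with both tables scaled together. Control monocytes were led by Tlr13, a receptor for bacterial ribosomal RNA, at 126 ± 26.3 CPM per kb (SD, n = 4), and by Tlr2, the partner of Tlr1 and Tlr6 in sensing lipoproteins, at 111 ± 39.2. Control macrophages were led by Tlr2 alone at 202 ± 23.1 CPM per kb, above every other member in all 4 libraries, followed by Tlr8, an endosomal member, at 41.5 ± 7.84. Of the 10 genes 4 were higher and 5 lower in macrophages by edgeR's quasi-likelihood test, where 24.5% of all tested genes were called higher and 19.7% lower. By level the share higher was 27.5% at a mean log2 CPM of 0 to 2 (Tlr9) and 44.3% from 2 to 4 (Tlr3 and Tlr5). It was 32% from 4 to 6 (Tlr1 and Tlr6), 23.2% from 6 to 8 (Tlr4, Tlr7, Tlr8 and Tlr13) and 21% above 8 (Tlr2). The shares lower in these classes were 20.3%, 22.2%, 29.8%, 43.3% and 52%. The largest gap was that of Tlr1, at 10.5 ± 2.46 CPM per kb in monocytes and 0.532 ± 0.216 in macrophages (log2 fold change -4.29 ± 0.37 (SE), adjusted p = 6.58e-10). Tlr13 was also far lower in macrophages, at 20.1 ± 2.10 (log2 fold change -2.65 ± 0.22 (SE), adjusted p = 1.72e-10). Tlr6 (-1.26 ± 0.26), Tlr7, a receptor for single-stranded RNA (-0.90 ± 0.19), and Tlr9, which binds unmethylated DNA (-1.56 ± 0.36, log2 fold change ± SE), were lower in macrophages too. The call of Tlr7 held under 6 of 8 other settings and was lost on the well-expressed scale (-0.56).

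Macrophages held more of the remaining genes. Tlr3, the double-stranded RNA receptor, was 0.878 ± 0.282 CPM per kb in control monocytes and 2.39 ± 0.406 in control macrophages (log2 fold change 1.44 ± 0.33 (SE), adjusted p = 6.13e-04). Tlr4, the lipopolysaccharide receptor, was 8.63 ± 2.11 and 18.3 ± 2.07 (log2 fold change 1.08 ± 0.24 (SE), adjusted p = 4.80e-04). Tlr2 and Tlr8 were higher by 0.87 and 1.03 on the log2 scale, and Tlr5, the flagellin receptor, did not pass the test (log2 fold change 0.97 ± 0.44 (SE), adjusted p = 0.0735), though it was called on the well-expressed scale (1.29, adjusted p = 0.0173) and under 4 of 8 other settings. Tlr1, Tlr3, Tlr4, Tlr6 and Tlr13 were called under all 8 other processing settings. Without control monocyte replicates 3 and 4, the libraries with the most T and NK cell markers, 7 of the 10 genes were called and Tlr2 (0.46) and Tlr8 (0.62) were not. The 2 tables may differ in sequencing or processing batch, since the notes name 2 versions of the aligner, and this cannot be told apart from cell type.

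**Figure D1:**
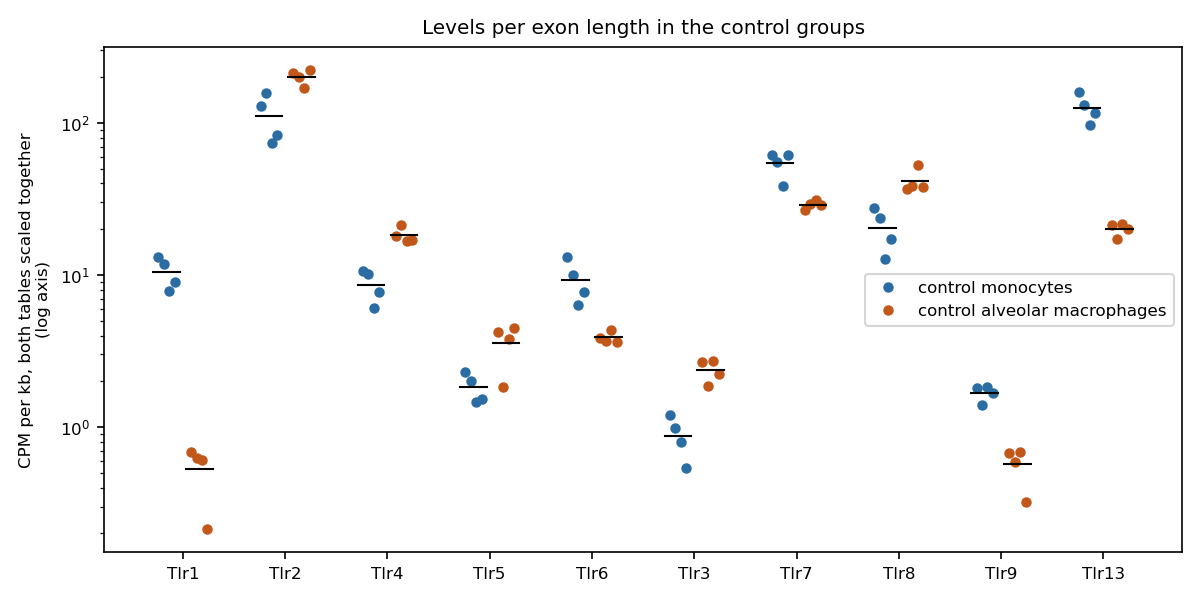
Levels of the 10 genes in control monocytes (blue) and control alveolar macrophages (orange), in CPM per kb of exon with both tables scaled together, on a log axis. Each point is a library (n = 4 per cell type) and bars are means. Tlr1 and Tlr13 are far higher in monocytes, and Tlr3 and Tlr4 are higher in macrophages. Among the 10 genes only Tlr5 has ranges that overlap between cell types.

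Within each group the order of levels was read from CPM per kb scaled within the cell type. In control monocytes it was Tlr13 (112 ± 24.4), Tlr2 (98.4 ± 35.1), Tlr7 (48.1 ± 9.57), Tlr8 (18.1 ± 6.06), Tlr1 (9.30 ± 2.27), Tlr6 (8.27 ± 2.71), Tlr4 (7.66 ± 1.92), Tlr5 (1.62 ± 0.371), Tlr9 (1.49 ± 0.194) and Tlr3 (0.782 ± 0.261). Tlr13 was above Tlr2 in 3 of 4 libraries, and the ranges of these neighbours overlapped, as did those of Tlr8 with Tlr1, Tlr1 with Tlr6, Tlr6 with Tlr4 and Tlr5 with Tlr9. In control macrophages the order was Tlr2 (232 ± 29.7), Tlr8 (47.4 ± 7.67), Tlr7 (33.3 ± 1.70), Tlr13 (22.999 ± 1.95), Tlr4 (21.002 ± 3.10), Tlr6 (4.45 ± 0.314), Tlr5 (4.06 ± 1.31), Tlr3 (2.73 ± 0.423), Tlr9 (0.651 ± 0.196) and Tlr1 (0.613 ± 0.256). Here Tlr13 and Tlr4, Tlr6 and Tlr5, Tlr5 and Tlr3, and Tlr9 and Tlr1 had overlapping ranges. After tamoxifen Tlr2 led in every group, but in monocytes at 3 d it was above Tlr13 in only 2 of 4 libraries, and in macrophages at 14 d Tlr13 had moved from the fourth to the second place. There Tlr13 was above Tlr4, the next gene, in each library, but their ranges overlapped.

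**Figure D2:**
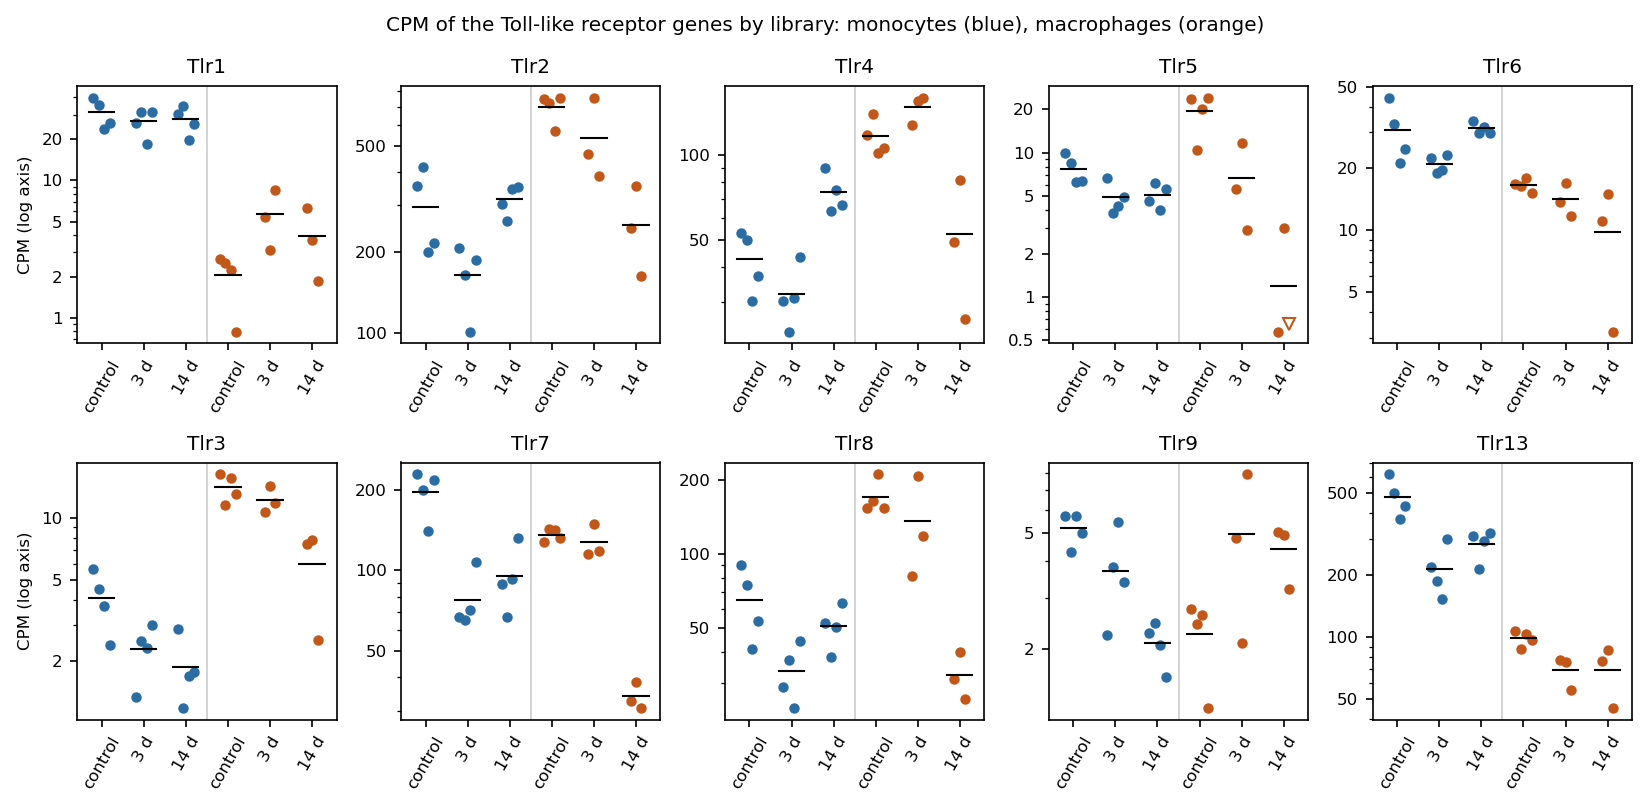
CPM of each gene by library on a log axis, in monocytes (blue) and macrophages (orange) at control, 3 d and 14 d, with bars at group means. The open triangle for Tlr5 marks the macrophage library with no Tlr5 read, drawn at the CPM of 3 counts. Tlr7 and Tlr13 in monocytes at 3 d, and Tlr7 and Tlr8 in macrophages at 14 d, lie below all of their controls.

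The early response of monocytes was examined first. At 3 d no Toll-like receptor gene rose and 5 of 10 fell, where 36.8% of all tested genes were called higher and 14.4% lower. These shares depended on level. The share lower was 3.76% among genes with a mean log2 CPM of 0 to 2, 15.3% from 2 to 4, 33.1% from 4 to 6, 44.5% from 6 to 8 and 47.1% above 8, and the shares higher were 52.3%, 10.7%, 1.22%, 1.14% and 2.27%. The calls were 0 of the 2 members in the class from 0 to 2 (Tlr3 and Tlr9), Tlr5 alone in the next, 1 of 4 from 4 to 6 (Tlr8), Tlr7 alone from 6 to 8 and both above 8 (Tlr2 and Tlr13). The falls that held under all 8 other settings and on leaving out any of the 12 libraries were those of Tlr7 and Tlr13. Tlr7 was 228, 199, 140.4 and 217 CPM in the controls and 67.2, 65.6, 71.1 and 107 at 3 d, with replicate 4 the highest of the 3 d group and no overlap between groups (log2 fold change -1.33 ± 0.23 (SE), adjusted p = 8.24e-04). Tlr13 was 619, 500.2, 373 and 435 CPM in the controls and 218, 187, 154 and 299 at 3 d, again without overlap (log2 fold change -1.17 ± 0.21 (SE), adjusted p = 0.00116). On the well-expressed scale these changes were -0.81 (adjusted p = 0.00653) and -0.64 (adjusted p = 0.0165).

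The other calls at 3 d turned on the scaling. Tlr2 was 353, 417, 200.2 and 216 CPM in the controls and 207, 165, 101 and 188 at 3 d, with control replicate 3 just below the highest 3 d library, so that the groups overlapped (log2 fold change -0.84 ± 0.25 (SE), adjusted p = 0.0121). Tlr8 was 90.1, 74.7, 41.3 and 53.7 CPM in the controls and 28.97, 37.1, 23.7 and 44.5 at 3 d, the groups overlapping slightly (log2 fold change -0.95 ± 0.26 (SE), adjusted p = 0.00719). Tlr5, at 7.75 ± 1.77 CPM in controls and 4.89 ± 1.23 at 3 d, was the weakest call (log2 fold change -0.66 ± 0.26 (SE), adjusted p = 0.0397). On the well-expressed scale none of these 3 passed, at -0.32, -0.43 and -0.14. Tlr1 (-0.22, and 0.31 on the well-expressed scale), Tlr4 (-0.41 and 0.12), Tlr9 (-0.48 and 0.05), Tlr6 (-0.55 and -0.02) and Tlr3 (-0.83 and -0.30) were not called. The median over the 10 genes was -0.74, and -0.22 on the well-expressed scale, against 0.22 and 0.74 for all genes. By level the all-gene median was 1.31 in the class from 0 to 2, -0.21 from 2 to 4, -0.48 from 4 to 6, -0.57 from 6 to 8 and -0.58 above 8. Without 3 d replicate 3 the count of calls was 3, with Tlr2 and Tlr5 lost, and without control replicates 3 and 4 it was 8.

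At 14 d the monocytes held more of 1 receptor gene and less of 3. Tlr4 rose, Tlr7, Tlr9 and Tlr13 fell and the other 6 genes were not called, where 3.22% of tested genes were called higher and 5.34% lower. In the classes of level of these genes 3.93% were higher (4 to 6, Tlr4), and 3.97% (0 to 2, Tlr9), 13.8% (6 to 8, Tlr7) and 17.6% (above 8, Tlr13) were lower. Tlr4 was 52.996, 49.8, 30.3 and 37.1 CPM in the controls and 90.1, 63.4, 75.2 and 66.3 at 14 d, all 14 d libraries lying above the controls (log2 fold change 0.79 ± 0.22 (SE), adjusted p = 0.0335). Tlr9 was 5.72, 4.30, 5.71 and 5.00 CPM in the controls and 2.27, 2.47, 2.08 and 1.61 at 14 d, without overlap (log2 fold change -1.30 ± 0.30 (SE), adjusted p = 0.0127). In counts these Tlr9 levels were 138, 80, 142 and 123 and 49, 50, 39 and 40 reads. Tlr7 was 88.9, 67.2, 92.6 and 132 CPM at 14 d, each below the lowest control (log2 fold change -1.04 ± 0.23 (SE), adjusted p = 0.00891). Tlr13 was 309, 214, 292 and 322 CPM at 14 d, also below the controls (log2 fold change -0.76 ± 0.21 (SE), adjusted p = 0.0369). Tlr7 and Tlr13 are X-linked and the 14 d libraries differ from controls in sex markers, as given above. The plasmacytoid dendritic cell and B cell marker sums were also lower in the 14 d than in the control monocytes, and the Chil3-dominated macrophage marker sum was higher, and their part in the falls of Tlr7 and Tlr9 and the rise of Tlr4 was not tested.

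Tlr2 was 303, 263, 345 and 349.99 CPM at 14 d, within the range of the controls, and was not called (log2 fold change 0.09 ± 0.25 (SE), adjusted p = 0.878). Tlr1 (-0.17 ± 0.23), Tlr6 (0.03 ± 0.20) and Tlr8 (-0.34 ± 0.25, log2 fold change ± SE) were not called, nor were Tlr3 (log2 fold change -1.11 ± 0.38 (SE), adjusted p = 0.0879) and Tlr5 (log2 fold change -0.60 ± 0.26 (SE), adjusted p = 0.179), although all 14 d values of Tlr5 lay below the controls. Calls were the same 4 genes on the well-expressed scale. Tlr7 and Tlr9 were called on leaving out any of the 12 libraries and under 8 of 8 other settings, whereas Tlr4 and Tlr13 were called in 4 of 12 and 6 of 8. The count of calls was 2 without control replicate 4, without 3 d replicate 1 and without 14 d replicates 1, 2 or 3, each left out alone. Without control replicates 3 and 4 it was also 2, leaving Tlr7 and Tlr13.

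Between 3 d and 14 d in monocytes Tlr2 and Tlr4 rose and Tlr9 fell, where 12% of genes were called higher and 34.5% lower, but 26.6%, 31.7% and 31.4% were higher in the classes of mean log2 CPM 4 to 6, 6 to 8 and above 8, and 51.8% were lower in the class from 0 to 2, which holds Tlr9. Tlr4 rose from 32.1 ± 8.21 (SD, n = 4) to 73.7 ± 12.01 (SD, n = 4) CPM without overlap (log2 fold change 1.20 ± 0.22 (SE), adjusted p = 0.00156) and was called under all 8 other settings. Tlr2 went from 165 ± 45.9 (SD, n = 4) to 315 ± 40.95 (SD, n = 4) CPM, also without overlap (log2 fold change 0.93 ± 0.25 (SE), adjusted p = 0.00920), but on the well-expressed scale this change was 0.47 (adjusted p = 0.120). Tlr9 went from 3.72 ± 1.32 (SD, n = 4) to 2.11 ± 0.366 (SD, n = 4) CPM (log2 fold change -0.82 ± 0.30 (SE), adjusted p = 0.0342), a call kept under 5 of 8 other settings and in 6 of 12 omissions of a library and lost without control replicates 3 and 4 (adjusted p = 0.0647). In the same libraries the alveolar macrophage marker sum was higher at 14 d than at 3 d and that of the plasmacytoid dendritic cell markers lower, both without overlap, and their part in these 3 changes was not tested. The other 7 genes were not called, among them Tlr7 (0.29 ± 0.22) and Tlr13 (0.41 ± 0.21), whose signs turned on the well-expressed scale (-0.18 and -0.06). The count of calls was 5 without control replicate 2 or 14 d replicate 2, and 6 without 3 d replicate 4, which carried the highest Tlr7 and Tlr13 of its group.

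In alveolar macrophages at 3 d none of the 10 genes was called by edgeR, with 4 at an unadjusted p under 0.05 and none called by DESeq2, where 1.05% of genes were called higher and 0.224% lower. Tlr7 was 128, 142, 141 and 132 CPM in the controls and 115, 149 and 118 at 3 d (log2 fold change -0.09 ± 0.13 (SE), adjusted p = 0.806). Tlr2 was 749, 722, 566 and 756 and 468, 752 and 386 CPM, with 3 d replicate 2 within the controls and the others below them (log2 fold change -0.38 ± 0.25 (SE), adjusted p = 0.534). Tlr4 was 118, 141, 102 and 106 and 128, 156 and 160.3 CPM, the groups overlapping (log2 fold change 0.34 ± 0.27 (SE), adjusted p = 0.612). Tlr13 was 107, 88.04, 103 and 97.2 and 77.8, 75.4 and 55.3 CPM, without overlap, and was not called (log2 fold change -0.51 ± 0.19 (SE), adjusted p = 0.223).

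The largest estimates at 3 d in macrophages were those of Tlr5, Tlr1 and Tlr9, the latter pair having the lowest control levels per kb of the 10 genes. Tlr1 was 2.67, 2.51, 2.23 and 0.797 CPM in controls and 5.45, 3.10 and 8.55 at 3 d (log2 fold change 1.46 ± 0.45 (SE), adjusted p = 0.135), and Tlr9 was 2.74, 2.43, 2.62 and 1.26 and 4.80, 2.10 and 7.92 (log2 fold change 1.11 ± 0.41 (SE), adjusted p = 0.208). For both genes 3 d replicate 3 was highest, replicate 1 next and replicate 2 lowest. The B cell and endothelial marker sums stood in the same order in these libraries. So did the plasmacytoid dendritic cell sum, at 47.8, 22.7 and 94.9 CPM in 3 d replicates 1 to 3 and 7.37 to 22.3 in controls. The part of these markers in these values was not tested. Tlr5 was 23.4, 10.4, 19.99 and 24.03 CPM in controls and 5.59, 11.6 and 2.92 at 3 d (log2 fold change -1.52 ± 0.61 (SE), adjusted p = 0.301). Tlr3 (-0.21 ± 0.27), Tlr6 (-0.23 ± 0.32) and Tlr8 (-0.32 ± 0.26) stayed within 1 log2 unit of control. Without 3 d replicate 2, which had the fewest B cell marker reads of its group, 3 genes were called, Tlr1 (1.80) and Tlr9 (1.52) as higher and Tlr8 (-0.73) as lower.

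In macrophages at 14 d 6 of the 10 genes were lower than in controls. Tlr2, Tlr3, Tlr4, Tlr5, Tlr7 and Tlr8 fell and no member was called higher, where 39.4% of genes were called higher and 22.9% lower. By level 49.5% of genes with a mean log2 CPM of 6 to 8 and 60.8% of those above 8 were lower, against 4 of the 5 members there (Tlr2, Tlr4, Tlr7 and Tlr8, not Tlr13). From 2 to 4 the shares were 24.6% lower and 28.4% higher, and 2 of 3 members were lower (Tlr3 and Tlr5, not Tlr6). In the class from 0 to 2, which holds Tlr1 and Tlr9, 4.65% were lower and 60.1% higher. The median over the 10 genes was -1.19, and -0.67 on the well-expressed scale, against 0.18 and 0.73 for all genes and, from the lowest to the highest of these classes, 1.78, -0.11, -0.58 and -0.72. In the same samples 6 of 9 alveolar macrophage markers were lower and 4 of 8 Ly6Chi monocyte markers higher, and their part in these falls was not tested. The 6 receptor genes were called lower under all 8 other settings and on leaving out any of the 10 libraries.

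The X-linked neighbours Tlr7 and Tlr8 fell with the smallest adjusted p-values. Tlr7 went from 128, 142, 141 and 132 CPM in the controls to 32.7, 38.6 and 30.8 at 14 d (log2 fold change -1.996 ± 0.15 (SE), adjusted p = 2.84e-07). Tlr8 went from 153, 163, 211 and 153 to 30.97, 39.8 and 25.9 CPM (log2 fold change -2.39 ± 0.29 (SE), adjusted p = 1.95e-05). Neither group overlapped its controls, and on the well-expressed scale the changes were -1.44 and -1.85. The other X-linked member, Tlr13, went from 107, 88.04, 103 and 97.2 to 76.9, 86.7 and 45.3 CPM (log2 fold change -0.50 ± 0.19 (SE), adjusted p = 0.0283), under the fold threshold of 1.5, and its estimate was 0.03 on the well-expressed scale. For these 3 X-linked genes the time after tamoxifen and the sex difference of the libraries cannot be told apart.

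Tlr5 had the largest estimate. It was 23.4, 10.4, 19.99 and 24.03 CPM in the controls and 0.576, 3.02 and 0 at 14 d, that is 342, 137, 305 and 362 reads and 4, 24 and 0 reads (log2 fold change -3.90 ± 0.78 (SE), adjusted p = 0.00146). Leaving out single libraries moved this estimate between -5.96 and -3.45. In the library without a read the limit of 3 counts stood at 0.651 CPM. Tlr2 went from 749, 722, 566 and 756 to 246, 353 and 163 CPM (log2 fold change -1.46 ± 0.26 (SE), adjusted p = 3.23e-04). Tlr4 went from 118, 141, 102 and 106 to 48.97, 81.5 and 26.2 CPM, replicate 3 the lowest (log2 fold change -1.15 ± 0.28 (SE), adjusted p = 0.00316). Tlr3 went from 16.4, 11.6, 15.7 and 13.1 to 7.49, 7.81 and 2.54 CPM (log2 fold change -1.24 ± 0.30 (SE), adjusted p = 0.00186). All 4 genes lay below every control, and on the well-expressed scale they were -3.38, -0.93, -0.64 and -0.71, each still called. Replicate 3 had the lowest CPM of its group for all 10 genes, and the lowest total count of all libraries.

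Of the remaining members, Tlr6 went from 16.6 ± 1.17 to 9.77 ± 6.00 CPM and was not called (log2 fold change -0.74 ± 0.33 (SE), adjusted p = 0.0584). Tlr1, at 6.34, 3.65 and 1.86 CPM (log2 fold change 0.96 ± 0.47 (SE), adjusted p = 0.0839), and Tlr9, at 5.04, 4.91 and 3.21 CPM (log2 fold change 0.96 ± 0.42 (SE), adjusted p = 0.0520), were not called, but on the well-expressed scale both were called higher, at 1.48 (adjusted p = 0.0142) and 1.498 (adjusted p = 0.00645). In their class of level, from 0 to 2, 60.1% of genes were higher and the median was 1.78, above both estimates. Over the 8 other settings Tlr1 was called higher in 4 and Tlr9 in 6, and each in 1 of 10 omissions of a library. Their reads numbered 44, 29 and 11 for Tlr1 and 35, 39 and 19 for Tlr9. The summed neutrophil and eosinophil markers and Itgam were higher in these libraries than in controls, as given above. Of 6 tested neutrophil markers 1 was lower on the well-expressed scale.

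From 3 d to 14 d the same 6 genes were called lower in macrophages and none higher, where 36.3% of genes were called higher and 20% lower. The share lower was 44.3% in the class of mean log2 CPM 6 to 8 and 57.3% above 8, where 4 of 5 members were called, 21.3% from 2 to 4, where 2 of 3 were, and 3.35% from 0 to 2, where neither was. Tlr7 (log2 fold change -1.90 ± 0.15 (SE), adjusted p = 2.13e-06), Tlr8 (log2 fold change -2.07 ± 0.29 (SE), adjusted p = 1.48e-04) and Tlr4 (log2 fold change -1.496 ± 0.30 (SE), adjusted p = 0.00134) were called under all 8 other settings, Tlr2 (-1.07 ± 0.27) under 7, Tlr5 (-2.38 ± 0.82) under 5 and Tlr3 (-1.02 ± 0.31) under 4. Leaving out single libraries moved Tlr5 between -4.44 and -1.93, and its call was kept in 7 of 10 such omissions. For Tlr13 the log2 fold change was 0.0044 with an SE of 0.20, which was not called.

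**Figure D3:**
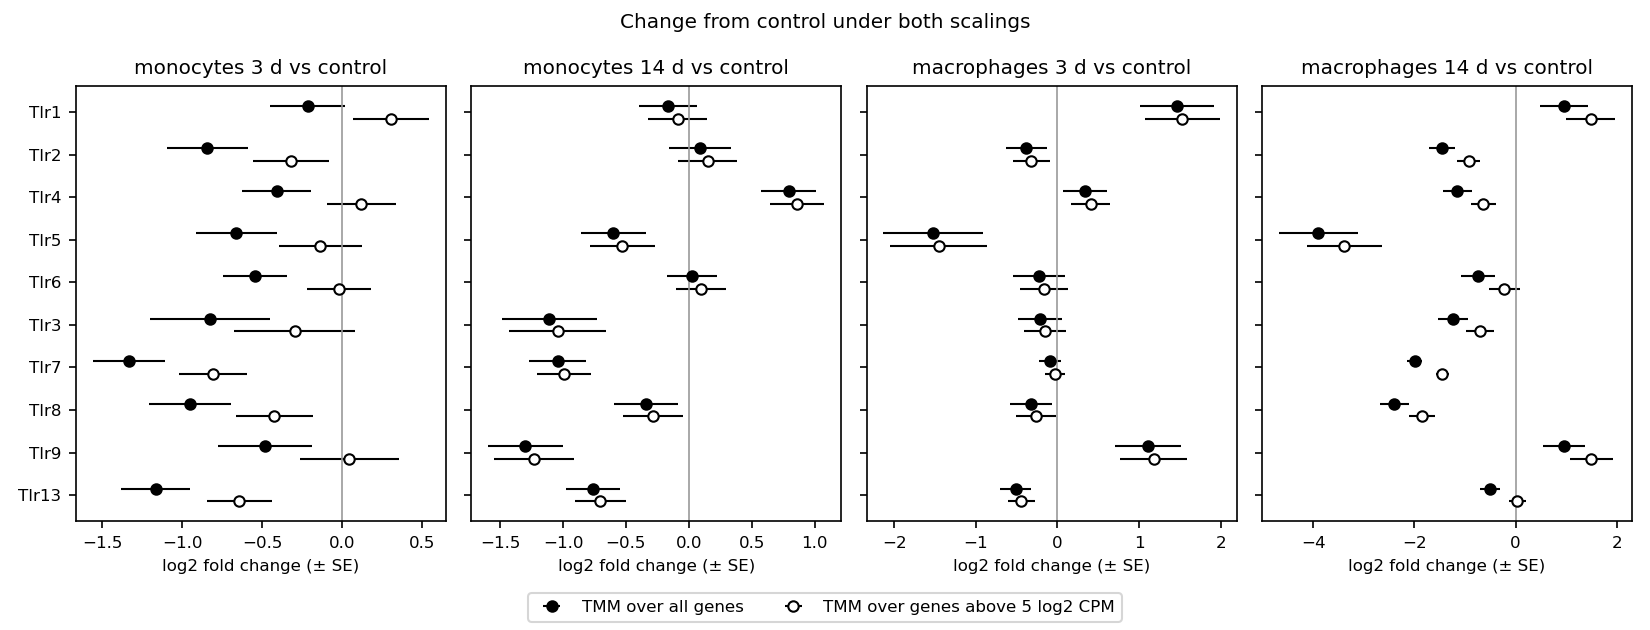
Log2 fold change from control (± SE of the edgeR fit) of the 10 genes at 3 d and 14 d in each cell type. Filled circles use TMM factors over all tested genes and open circles those over genes whose mean log2 CPM exceeded 5, which shifts all genes of a panel by about the same amount. Tlr7 and Tlr13 in monocytes at 3 d and Tlr2, Tlr3, Tlr4, Tlr5, Tlr7 and Tlr8 in macrophages at 14 d are lower under both.

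**Figure D4:**
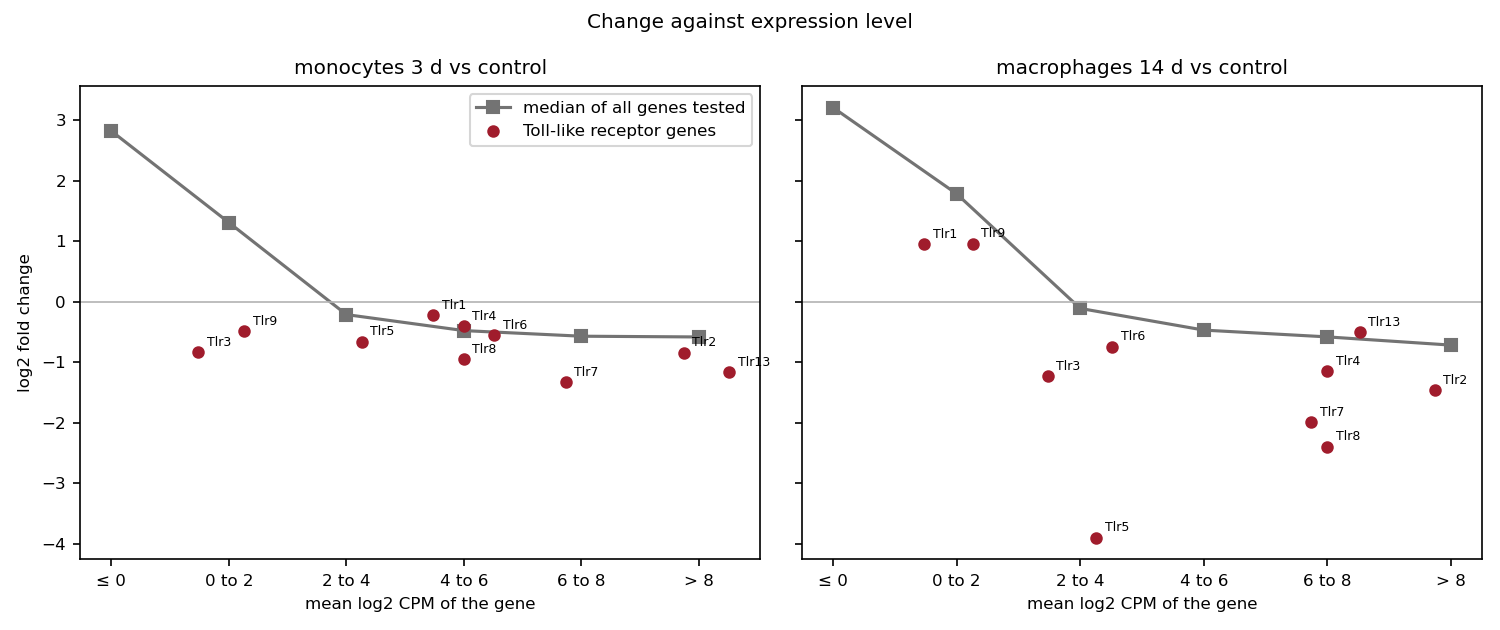
Log2 fold change of the 10 genes (red) against their class of mean log2 CPM, with the median of all tested genes in each class (grey squares), for monocytes at 3 d and macrophages at 14 d. In the upper classes the medians lie below 0, at -0.58 and -0.72 for genes above 8, and Tlr7 and Tlr8 in macrophages lie well under the line at -1.996 and -2.39.

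Whether the 2 cell types changed alike was tested as an interaction over all 22 samples. At 3 d the change differed for 2 genes, both higher in macrophages, where 3.51% of genes had a higher and 15.2% a lower change in macrophages. In the classes of level of these 2 genes the share higher was 6.38% (4 to 6, Tlr1) and 12.6% (6 to 8, Tlr7). Tlr7 fell in monocytes and was not called in macrophages (difference of changes 1.06 ± 0.28, adjusted p = 0.0138), and Tlr1 differed by 1.51 ± 0.49 (adjusted p = 0.0362). On the well-expressed scale no gene passed, with Tlr7 at 0.75 (adjusted p = 0.0565) and Tlr1 at 1.17 (adjusted p = 0.0889). Tlr7 was called on leaving out any library and Tlr1 in 14 of 22, the count of calls being 1 without control monocyte replicate 1 or 2, 3 d monocyte replicate 1, control macrophage replicate 2 or 4, or 3 d macrophage replicate 1 or 3.

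At 14 d the change differed for 7 genes, 6 with a lower and 1 with a higher change in macrophages, where the shares of all genes were 19.9% and 16.9%. Among genes with a mean log2 CPM of 2 to 4 the share with a lower change was 28.7%, from 4 to 6 49.6%, from 6 to 8 57.1% and above 8 60.6%, and of the members there 1 of 2, 1 of 2, 3 of 4 and the 1 above 8 were called lower. In the class from 0 to 2, which holds Tlr9, 29.4% had a higher change. The balance turned on the scaling, with 4 genes lower and 2 higher on the well-expressed scale, where Tlr6 (-0.37) and Tlr7 (-0.51) were lost and Tlr1 was gained. Tlr4 moved in opposite directions, up in monocytes and down in macrophages (difference -2.30 ± 0.36, adjusted p = 4.06e-05). Tlr9 fell in monocytes, while its macrophage estimate was above 0 (difference 1.91 ± 0.53, adjusted p = 0.00694). Tlr2 (-1.90 ± 0.38), Tlr5 (-3.69 ± 0.73) and Tlr8 (-2.41 ± 0.39) had the lower change in macrophages, and with Tlr4 and Tlr9 they were called under all 8 other settings. The Tlr5 difference ran from -5.68 to -3.20 on leaving out single libraries. Tlr7 (-1.30 ± 0.29) was called under 4 of 8 and Tlr6 (-1.13 ± 0.39) under 1 of 8. For Tlr1, Tlr3 and Tlr13 the difference did not pass in any omission of a library (0.79 ± 0.51, -0.50 ± 0.49 and -0.10 ± 0.30). Tlr1 was called in 3 of 8 other settings, at 1.54 on the well-expressed scale (adjusted p = 0.0260), and Tlr3 and Tlr13 in none.

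Shares of the summed CPM per kb of the 10 genes within each library do not depend on the scaling of libraries. In control monocytes Tlr13 made up 36.9% ± 2.95 (SD, n = 4) and Tlr2 31.7% ± 5.05, and in control macrophages Tlr2 made up 62.6% ± 4.68, Tlr8 12.98% ± 3.00 and Tlr13 6.26% ± 0.732. In monocytes the Tlr13 share was 32.6% to 39.3% in controls, 29.7% to 35.4% at 3 d and 25.4% to 29.3% at 14 d, while the Tlr2 share was 27.03% to 38.9%, 29.9% to 41.5% and 40.997% to 46.04%. The Tlr4 share of monocytes was 2.47% to 2.52% in the 4 controls and 4.41% to 6.61% at 14 d, and the Tlr7 share 13.7% to 20.1% and 8.39% to 11.98%. In each of these 4 genes the control and 14 d ranges did not overlap.

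In macrophages the Tlr2 share was 55.7% to 66.03% in controls and 61.4% to 64.7% at 14 d. Since Tlr2 makes up most of the sum, the sum follows this gene and a steady share says little. The Tlr13 share was 5.44% to 7.14% and 11.1% to 13.5%, and the Tlr8 share 11.1% to 17.4% and 6.13% to 8.28%, both without overlap. Tlr13 itself was not called higher at 14 d on either scale. Tlr7 per kb was 1.26 to 1.71 times Tlr13 in control macrophages and 0.448 to 0.716 times at 14 d. The summed level itself was 369 ± 21.6 CPM per kb in control macrophages (SD, n = 4), 300.1 ± 87.5 at 3 d and 134 ± 47.1 at 14 d (n = 3 each), and in monocytes 306 ± 74.998, 155 ± 35.2 and 240.2 ± 31.5 (n = 4 each). Unlike the shares, these sums depend on the scaling of libraries.

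**Figure D5:**
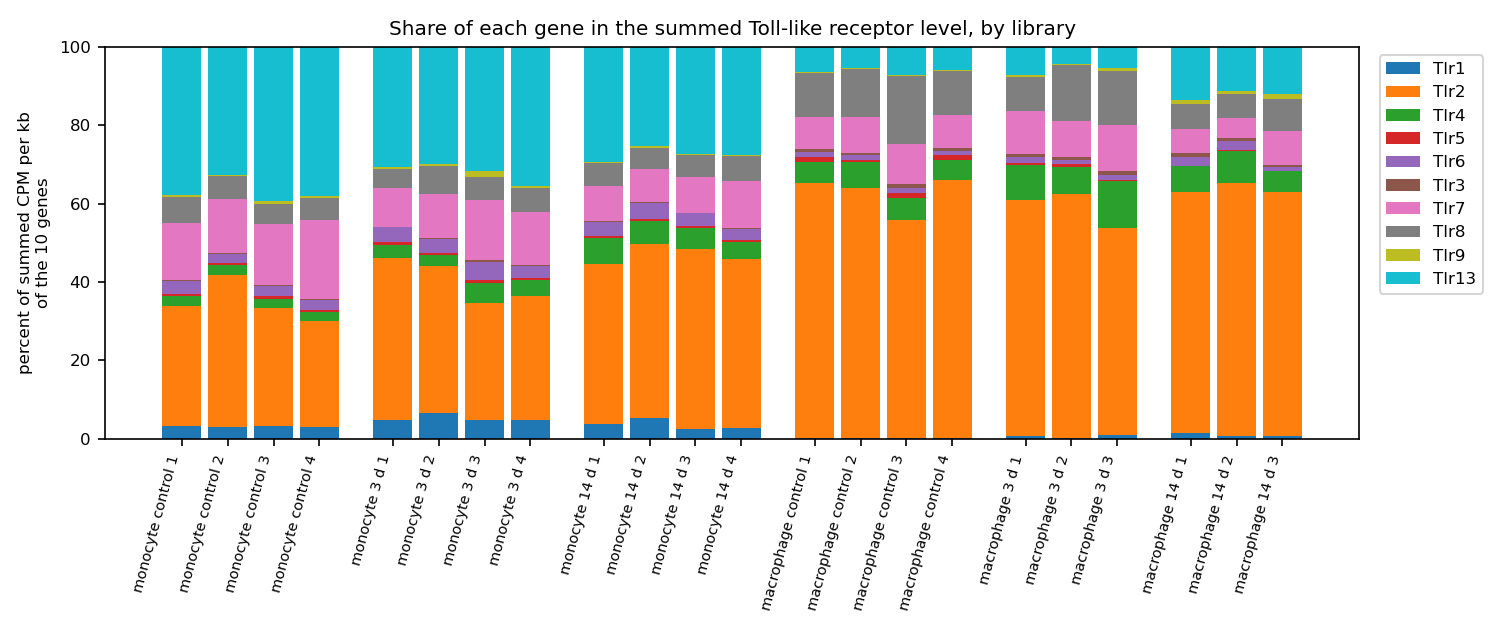
Share of each gene in the summed CPM per kb of the 10 genes, in percent, by library. Tlr13 (cyan, top) takes 32.6% to 39.3% of control monocytes and 5.44% to 7.14% of control macrophages, rising to 11.1% to 13.5% in macrophages at 14 d. The Tlr13 level itself did not rise there, at 98.99 ± 8.39 CPM in controls and 69.6 ± 21.6 at 14 d (mean ± SD).

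Tlr11 and Tlr12 bind protozoan profilin. Tlr11, at 2.04 ± 0.815 CPM per kb in control monocytes, was not below Tlr5 (1.62 ± 0.371) or Tlr9 (1.49 ± 0.194) there. It was 10.5, 6.40, 5.11 and 4.68 CPM in control monocytes and 0.447, 0.584, 0.484 and 4.52 at 3 d, with replicate 4 far above the others (log2 fold change -2.14 ± 0.69 (SE), adjusted p = 0.0174). This call was lost on the well-expressed scale (-1.61, adjusted p = 0.0657) and held under 4 of 8 other settings and in 9 of 12 omissions of a library. Tlr11 was 1.30, 0.760, 0.918 and 0.133 CPM in control macrophages (log2 fold change -3.46 ± 0.70 (SE), adjusted p = 2.07e-04). Tlr12 was at most 1.83 CPM in every library. It was called lower in monocytes at 14 d than at 3 d (log2 fold change -2.63 ± 0.77 (SE), adjusted p = 0.0136) and higher in macrophages at 14 d than in controls (log2 fold change 1.44 ± 0.60 (SE), adjusted p = 0.0420), on counts of 2 to 10 reads per macrophage library of those groups, and the latter call was kept on leaving out only 2 of the 10 libraries. Its class of mean log2 CPM is that at or below 0. There 61.9% of genes were lower in the former comparison (median -2.47) and 85.2% higher in the latter (median 3.21).

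The proteins around the receptors were followed by role, from lists compiled with earlier results known. Their counts stand beside the shares of all genes given above, 36.8% higher and 14.4% lower in monocytes at 3 d, 3.22% and 5.34% at 14 d, and 39.4% and 22.9% in macrophages at 14 d. Most of the listed genes had a mean log2 CPM above 4, and in the 3 classes above that level 33.1%, 44.5% and 47.1% of genes were lower in monocytes at 3 d, 8.05%, 13.8% and 17.6% at 14 d, and 41.4%, 49.5% and 60.8% in macrophages at 14 d. Counts near these shares are no result about a list. Among 6 co-receptor genes of monocytes, 1 rose and 3 fell at 3 d and 1 rose and 2 fell at 14 d (median log2 fold change -0.62 and 0.40). The 3 falls at 3 d were not called on the well-expressed scale (Cd180 -0.23, Ly86 -0.17 and Cd36 -1.56). Cd14, which hands lipopolysaccharide to Tlr4, was 924 ± 231 CPM in controls and 1501 ± 239.7 at 14 d (log2 fold change 0.70 ± 0.18 (SE), adjusted p = 0.0262), the same direction as Tlr4. Cd180 and Ly86, a receptor pair related to Tlr4 and its partner, fell at 14 d (-1.03 ± 0.26 and -0.72 ± 0.14) and at 3 d (-0.76 ± 0.26 and -0.70 ± 0.14). Lbp, the lipopolysaccharide binding protein, rose at 3 d (1.11 ± 0.36) and Cd36, a scavenger receptor that assists Tlr2, fell (-2.09 ± 0.63). In macrophages at 14 d Lbp rose (2.72 ± 0.55), Ly96, the binding partner of Tlr4, fell (-0.81 ± 0.33, and -0.25 and not called on the well-expressed scale), and Cd36 fell, with 223 to 396 CPM in controls and 43.2 to 91.3 at 14 d (log2 fold change -2.29 ± 0.32 (SE), adjusted p = 9.65e-05).

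Of 7 genes that fold, carry or cleave the endosomal receptors or relay from them, 5 fell in monocytes at 3 d (median -0.82), where 33.1% to 47.1% of genes in their classes of level were lower, and on the well-expressed scale none did. Among these were Unc93b1, which transports endosomal receptors (-0.87 ± 0.25), Cnpy3, a folding factor (-0.85 ± 0.13), and the proteases Ctss (-0.82 ± 0.15) and Lgmn (-0.92 ± 0.22). At 14 d Lgmn was higher than control (log2 fold change 1.19 ± 0.22 (SE), adjusted p = 0.00266) and Tasl, an X-linked adaptor that acts with the transporter Slc15a4, was lower (log2 fold change -0.98 ± 0.20 (SE), adjusted p = 0.00551), and Cnpy3 (-0.63 ± 0.13) was also called lower, though not on the well-expressed scale (-0.56). In macrophages at 14 d 4 of 7 fell (median -0.71), and with the well-expressed scale 2 were lower and 2 higher (median -0.16), the latter Hsp90b1 (1.11) and Lgmn (0.74). Among the falls were Tasl at 23.2 ± 2.92 CPM in controls and 8.59 ± 2.46 at 14 d (log2 fold change -1.42 ± 0.21 (SE), adjusted p = 4.20e-05) and Slc15a4 at -1.16 ± 0.17, both also called on the well-expressed scale. Unc93b1 (-0.87 ± 0.13) and Ctss (-0.71 ± 0.14) were not called there.

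Among 6 adaptor genes Pik3ap1, which links the receptors to phosphoinositide 3-kinase, fell in every comparison with control but that of macrophages at 3 d. In monocytes it went from 373 ± 46.7 CPM to 116 ± 32.4 at 3 d (log2 fold change -1.69 ± 0.18 (SE), adjusted p = 1.38e-04) and 132 ± 15.3 at 14 d (log2 fold change -1.51 ± 0.18 (SE), adjusted p = 1.24e-04). In macrophages it went from 908 ± 91.8 to 171 ± 33.6 CPM at 14 d (log2 fold change -2.41 ± 0.30 (SE), adjusted p = 3.17e-05). Ticam2, the bridging adaptor of Tlr4, fell in monocytes at 3 d (-1.05 ± 0.26) and 14 d (-1.05 ± 0.26) and in macrophages at 14 d (-1.69 ± 0.23). Its call at 3 d was lost on the well-expressed scale (-0.53, adjusted p = 0.0887), and the other 2 were kept. Myd88 (-0.97 ± 0.17) and Tirap (-0.80 ± 0.17) fell in macrophages at 14 d and were not called on the well-expressed scale (-0.43 and -0.26). In all, 1 adaptor rose and 4 fell there, and 1 rose and 2 fell in monocytes at 3 d. The well-expressed scale left 1 higher and 2 lower in macrophages at 14 d and 1 of each in monocytes at 3 d. The adaptor that rose was Sarm1, an NADase with the receptors' TIR domain, at 0.0814 to 0.331 CPM in control monocytes and 1.07 to 2.40 at 3 d, and 0.152 to 0.822 in control macrophages and 5.92 to 8.93 at 14 d. Its lowest control values lay under the limit of 3 reads, and in its class of mean log2 CPM most genes were called higher, 69.8% at or below 0 in monocytes at 3 d and 60.1% from 0 to 2 in macrophages at 14 d.

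Of 16 kinases and ubiquitin ligases 8 fell in monocytes at 3 d and 1 at 14 d, and none rose. The 3 d count is near the shares of genes at that level, 33.1% from 4 to 6 and 44.5% from 6 to 8. Only Irak2 and Traf3, 2 of the 8, fell at 3 d on the well-expressed scale. Irak2, a Myd88-bound kinase, was the call at 14 d (log2 fold change -1.16 ± 0.20 (SE), adjusted p = 0.00194) and fell at 3 d as well (log2 fold change -1.28 ± 0.20 (SE), adjusted p = 6.48e-04), with Traf3 (-1.17 ± 0.27), Map3k7 (-0.88 ± 0.28) and Chuk (-0.87 ± 0.32) beside it. In macrophages at 14 d 5 of 16 fell, including the ubiquitin ligase Peli1 (-1.38 ± 0.24), Tbk1, which activates Irf3 (-1.15 ± 0.19), Ikbkb (-0.99 ± 0.14) and Irak2 (-0.90 ± 0.21). Peli1 and Tbk1 were called on the well-expressed scale, and Ikbkb and Irak2 were not, while Traf3 (0.68) and Tab2 (0.95) were called higher there, making 2 higher and 2 lower (median 0.07).

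Of 8 transcription factor genes 5 were lower in monocytes at 3 d, 1 of them on the well-expressed scale, and 3 at 14 d on either scale. Irf7, an interferon-induced factor downstream of Tlr7 and Tlr9, was 589 to 959 CPM in controls, 355 to 731 at 3 d and 97.3 to 129 at 14 d (log2 fold change -2.84 ± 0.23 (SE), adjusted p = 8.65e-06). Irf5 (-0.67 ± 0.15) and the NF-kB subunit Rel (-1.01 ± 0.26) also fell at 14 d, and the falls at 3 d included Rel (-1.24 ± 0.26), Rela (-0.85 ± 0.15), Nfkb1 (-0.82 ± 0.12) and Irf5 (-0.82 ± 0.15), of which Rel was called on the well-expressed scale. In macrophages at 14 d Irf3 (log2 fold change -1.25 ± 0.17 (SE), adjusted p = 2.18e-05) and Rel (-0.86 ± 0.18) fell, 2 of 8. With the well-expressed scale Nfkb2 (0.79) and Irf5 (0.66) were called higher, Irf3 was called lower (-0.71) and Rel was not called.

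Some inhibitors and inducible targets rose in macrophages at 14 d, in numbers near the share of all genes, which is no result about the lists. Of all tested genes 39.4% were called higher and 22.9% lower. By mean log2 CPM the share higher was 60.1% from 0 to 2, 28.4% from 2 to 4 and 8.78% from 4 to 6. It was 4.38% from 6 to 8 and 3.88% above 8. Of 8 inhibitors 3 rose and 1 fell. Socs1 was 1.46 to 4.49 CPM in controls and 9.96 to 25.02 at 14 d (log2 fold change 2.61 ± 0.52 (SE), adjusted p = 8.82e-04), and the NF-kB inhibitors Nfkbia (1.21 ± 0.21) and Tnfaip3 (0.84 ± 0.19) rose with it, while Irak3 fell (-0.62 ± 0.20). With the well-expressed scale Irak3 was not called (-0.08) and Sigirr was called higher (0.96), giving 4 higher and none lower. Of 11 tested target genes 4 rose and 1 fell at 14 d, led by the prostaglandin synthase Ptgs2, at 1.06 to 3.88 CPM in controls and 25.5 to 103 at 14 d (log2 fold change 5.05 ± 0.56 (SE), adjusted p = 6.49e-05). Il1b (2.38 ± 0.81), Il12b (2.17 ± 0.67) and Nfkbiz (1.24 ± 0.31) rose and Ccl3 fell (-1.61 ± 0.22). Il1b was called on leaving out only 2 of the 10 libraries, 1 at a time. The neutrophil and eosinophil marker sums given above were higher in the same libraries. On the well-expressed scale 5 of 6 tested neutrophil markers were higher and 1 lower, and 4 of 4 eosinophil markers were higher. The part of these markers in these values was not tested. At 3 d, when no receptor was called, Il6 (log2 fold change 2.93 ± 0.45 (SE), adjusted p = 0.0120), Ccl4 (1.57 ± 0.35) and Tnfaip3 (1.11 ± 0.19) rose.

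In monocytes at 3 d 3 of 8 inhibitors fell, namely Tollip (-0.88 ± 0.18), Cyld (-0.77 ± 0.24) and Irak3 (-0.72 ± 0.21), and on the well-expressed scale none did. Of 12 targets 2 rose and 2 fell, with Ptgs2 (log2 fold change -2.04 ± 0.38 (SE), adjusted p = 0.00118) and Il1b (-1.17 ± 0.27) falling. On the well-expressed scale Il1b was not called (-0.64) and Cxcl2 was called higher (1.31), giving 3 higher and 1 lower. At 14 d the chemokine gene Cxcl2 rose, with 32.1 to 66.6 CPM in controls and 121 to 362 at 14 d (log2 fold change 2.52 ± 0.41 (SE), adjusted p = 0.00159), the interferon-induced chemokine gene Cxcl10 fell (log2 fold change -1.93 ± 0.46 (SE), adjusted p = 0.0183) and so did Ptgs2 (-1.40 ± 0.37), with no inhibitor called.

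From 3 d to 14 d in monocytes Lgmn (2.12 ± 0.22), Cd36 (2.73 ± 0.64), Cd14 (1.23 ± 0.18), Cxcl2 (1.72 ± 0.40), Tnf (1.49 ± 0.35), Ccl4 (1.34 ± 0.31), Map3k7 (1.27 ± 0.28) and Nfkbia (0.83 ± 0.14) rose, and Irf7 fell (-2.32 ± 0.23). In macrophages over the same interval Il6 (-3.03 ± 0.52), Cxcl1 (-2.56 ± 0.83), Ccl4 (-2.05 ± 0.41), Cd36 (-2.18 ± 0.33), Pik3ap1 (-1.51 ± 0.30), Rel (-1.22 ± 0.19) and Peli1 (-1.15 ± 0.26) fell, and Ptgs2 (2.74 ± 0.55) and the kinase gene Ikbke (1.002 ± 0.35) rose. Nfkbia in monocytes was not called on the well-expressed scale. On that scale 3 of 12 targets were higher and 3 lower in monocytes, where 432 of 22353 tested genes were higher and 9566 lower. In macrophages 2 of 11 were higher and 4 lower on that scale, where 9615 of 20944 tested genes were higher and 1122 lower. With TMM factors over all tested genes 12% of genes were higher and 34.5% lower in monocytes, and 36.3% and 20% in macrophages. Above a mean log2 CPM of 4 the share higher in monocytes was 26.6% to 31.7%, and the share lower in macrophages was 36.2% to 57.3%.

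Genes whose log2 CPM followed a receptor most closely were named within each cell type as a description. Over the 12 monocyte samples Tlr13 followed Ikbkb (r = 0.987), Actr3 and Stk4, Tlr7 followed Spop (r = 0.985), Nedd9 and Dhx40, Tlr8 followed Polr2b (r = 0.984), and Tlr4 followed Kdelc1 (r = 0.975), Cd33 and Csf2rb2. Tlr2 was closest to Pdhb (r = 0.972), Tlr5 to Rpap2 (r = 0.933) and Tlr9 to Psme1 (r = 0.933), and then to Ift172 and Bst2 (0.925). Over the 10 macrophage samples Tlr2 followed Abcc5 (r = 0.991), Tlr3 Crbn (r = 0.993), Tlr4 Tbce (r = 0.988), Tlr5 Tyk2 (r = 0.991), Tlr7 Las1l (r = 0.994) and Tlr8 Mon1b (r = 0.994). All values of a cell type share the same libraries and scaling factors, and a shift common to well-expressed genes enters each r.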

How the data were processed

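RNA from sorted lung Ly6Chi monocytes (12 samples) and SigF+CD11b- alveolar macrophages (10 samples) was sequenced by the study as paired reads of oligo(dT)-selected libraries. The authors deposited raw counts per gene in 2 tables, of 55421 and 31134 genes. Per the labels and the submitters' processing notes these used STAR 2.7.2c and 2.7.3a, featureCounts 1.6.3, and GRCm38 (mm10), and the notes also name DESeq2 1.26.0 and 1.28.1. The strand setting and annotation release are not given in the sources used here. Totals per sample are given in the text.

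Here counts were tested with edgeR 4.0.16 (R 4.3.3, limma 3.58.1) by the robust quasi-likelihood test after filterByExpr and TMM scaling, in 1 fit per cell type over its 3 groups (22353 monocyte and 20944 macrophage genes) and 1 fit over all 22 samples (26692 genes) for comparisons between cell types. The Benjamini-Hochberg adjustment ran over every gene of a fit, and calls required an adjusted p under 0.05 together with a fold change above 1.5. Standard errors are the fold change divided by the root of F. The scripts were tested on simulated data. Exonic lengths came from the GENCODE annotation of GRCm38.

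Alternatives were DESeq2 1.42.0, library size and upper quartile scaling, TMM factors of well-expressed genes (mean log2 CPM above 5), other filters, a replicate block, and fits of only the groups compared (the 8 other settings counted in the text), with calls without a fold threshold and leaving out each library beside them. The members and lists were chosen with earlier results of these data known. Named were all members, Tlr11, Tlr12, up to 4 called genes per pathway list with a mean log2 CPM above 3, and the 3 genes most like a member. Other pathway genes named were chosen after their values were seen. No pair of libraries agreed within sampling noise (lowest chi-square per degree of freedom 9.79).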

Additional observations from a re-analysis of the deposited data

Results flagged for a closer look

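Of 48 groups of 4 libraries examined, 3 had a library far from the rest, and chance gives about 1 in 20. These were Tlr7 in monocytes at 3 d (replicate 4 at 107 CPM) and Tlr11 in monocytes at 3 d (replicate 4 at 4.52 CPM) and at 14 d (replicate 4 at 2.86 CPM).

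The change from control differed between cell types for 11 results by the interaction test of edgeR. At 3 d these were Tlr1 (macrophage minus monocyte change 1.51) and Tlr7 (1.06). At 14 d they were Tlr2 (-1.90), Tlr4 (-2.30), Tlr5 (-3.69), Tlr6 (-1.13), Tlr7 (-1.30), Tlr8 (-2.41), Tlr9 (1.91), Tlr11 (2.65) and Tlr12 (2.98). Tlr12 rests on few reads in both cell types, and Tlr11 on few in macrophages, with 115 to 254 in control monocytes. The Tlr11 difference was called in 12 of 22 omissions of a library. In both cell types the 14 d libraries differed from controls in sex markers, and their part in these differences was not tested.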

How the results depend on the processing

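Of the values of the genes under other settings, 714 kept their direction and side of the threshold, 63 lost the call, 41 gained it and 52 changed sign, none of the last among genes called in the comparison concerned. The causes of these changes were not tested. In monocytes at 3 d the count of receptor genes called was 5, and it was 2 with library size scaling, upper quartile scaling, TMM factors of well-expressed genes and the stricter filter, and 8 both without a filter and without control replicates 3 and 4. At 14 d it was 4, and 2 with upper quartile scaling and without control replicates 3 and 4. From 3 d to 14 d in macrophages it was 6, and 3 with library size scaling. For the difference in the 3 d change it was 2, and 0 with library size scaling and TMM factors of well-expressed genes, 1 with upper quartile scaling and the stricter filter, and 4 without control monocyte replicates 3 and 4. That omission was chosen after seeing the data. Leaving out single libraries gave counts of 3 to 7 and 2 to 4 in monocytes at 3 d and 14 d, 2 to 6 between these times, 0 to 3 and 6 to 8 in macrophages at 3 d and 14 d, 5 to 7 between these times, 9 to 10 between control cell types, and 1 to 3 and 6 to 7 for the differences in change at 3 d and 14 d.

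Replicate numbers were shared between groups, and same-numbered samples did not deviate together in every pair (lowest r -0.04 and mean 0.40 for control and 14 d monocytes, mean -0.19 for control and 3 d monocytes), so the numbers were not taken as pairs. With the replicate block the count was 1 for the difference in the 3 d change, 7 in macrophages at 14 d and 5 from 3 d to 14 d in macrophages.

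With library size scaling the log2 fold change had the opposite sign for Tlr1 at 0.28 and Tlr4 at 0.0862 in monocytes at 3 d, and for Tlr1 at -0.32, Tlr5 at -0.32 and Tlr7 at -0.0970 in monocytes from 3 d to 14 d, and for Tlr9 at 0.28 in macrophages from 3 d to 14 d, and for Tlr2 at -0.0205 and Tlr6 at -0.16 in the 3 d difference between cell types, and for Tlr3 at 0.15 and Tlr13 at 0.57 in the 14 d difference between cell types. With upper quartile scaling the log2 fold change had the opposite sign for Tlr1 at 0.17 in monocytes at 3 d, and for Tlr6 at -0.0128 in monocytes at 14 d, and for Tlr1 at -0.36, Tlr5 at -0.36, Tlr7 at -0.16 and Tlr13 at -0.0335 in monocytes from 3 d to 14 d, and for Tlr9 at 0.14 in macrophages from 3 d to 14 d, and for Tlr3 at 0.20 and Tlr13 at 0.61 in the 14 d difference between cell types. On the well-expressed scale the log2 fold change had the opposite sign for Tlr1 at 0.31, Tlr4 at 0.12 and Tlr9 at 0.0461 in monocytes at 3 d, and for Tlr1 at -0.40, Tlr5 at -0.39, Tlr7 at -0.18 and Tlr13 at -0.0605 in monocytes from 3 d to 14 d, and for Tlr13 at 0.0314 in macrophages at 14 d, and for Tlr9 at 0.32 in macrophages from 3 d to 14 d, and for Tlr2 at -0.0305 and Tlr6 at -0.17 in the 3 d difference between cell types, and for Tlr3 at 0.27 and Tlr13 at 0.68 in the 14 d difference between cell types. Among only genes with a mean log2 CPM above 1 the log2 fold change had the opposite sign for Tlr1 at 0.16 in monocytes at 3 d, and for Tlr1 at -0.32, Tlr5 at -0.32 and Tlr7 at -0.11 in monocytes from 3 d to 14 d, and for Tlr9 at 0.19 in macrophages from 3 d to 14 d, and for Tlr6 at -0.0403 in the 3 d difference between cell types, and for Tlr3 at 0.0956 and Tlr13 at 0.50 in the 14 d difference between cell types. With DESeq2 the log2 fold change had the opposite sign for Tlr6 at -0.00275 in monocytes at 14 d, and for Tlr1 at -0.0982 and Tlr5 at -0.0847 in monocytes from 3 d to 14 d, and for Tlr13 at 0.32 in the 14 d difference between cell types. Without a filter on low counts the log2 fold change had the opposite sign for Tlr2 at -0.0132 and Tlr6 at -0.0726 in monocytes at 14 d, and for Tlr13 at -0.22 in macrophages from 3 d to 14 d. Without control monocyte replicates 3 and 4 the log2 fold change had the opposite sign for Tlr2 at -0.28 and Tlr6 at -0.28 in monocytes at 14 d, and for Tlr3 at 0.0550 and Tlr13 at 0.37 in the 14 d difference between cell types. With the replicate number as a block the log2 fold change had the opposite sign for Tlr13 at -0.0131 in macrophages from 3 d to 14 d. Leaving out single libraries moved these estimates across 0, over the ranges given: Tlr1 in monocytes from 3 d to 14 d -0.19 to 0.15, Tlr13 in the 14 d difference between cell types -0.26 to 0.11, Tlr13 in macrophages from 3 d to 14 d -0.31 to 0.18, Tlr2 in monocytes at 14 d -0.0548 to 0.30, Tlr5 in monocytes from 3 d to 14 d -0.0892 to 0.18, Tlr6 in the 3 d difference between cell types -0.0774 to 0.54, Tlr6 in monocytes at 14 d -0.11 to 0.25, Tlr9 in macrophages from 3 d to 14 d -0.74 to 0.17.

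Counts of all genes called also moved by over 1.5 times. With the stricter filter they went from 11438 to 1467 in monocytes at 3 d, from 10395 to 1554 in monocytes from 3 d to 14 d, from 13051 to 5014 in macrophages at 14 d, from 11806 to 4232 in macrophages from 3 d to 14 d, from 11787 to 7579 between control cell types, and from 4995 to 1197 and 9829 to 3737 for the differences at 3 d and 14 d, with fewer genes tested. Without a filter they were 19592 in monocytes at 3 d and 16664 from 3 d to 14 d. In macrophages at 3 d 267 genes were called, 763 with DESeq2, 133 with the replicate block, 92, 146 and 101 without control replicate 1, 3 or 4, and 77, 1476 and 111 without 3 d replicate 1, 2 or 3. In monocytes at 14 d the count went from 1914 to 1158 without 14 d replicate 3. For the difference in the 3 d change it was 3136 and 3033 without control macrophage replicate 1 or 2, and 2474 and 2272 without 3 d macrophage replicate 1 or 3. Depth was lowest in the macrophages at 14 d. There Tlr1 (11 to 44 reads), Tlr3 (15 to 62), Tlr5 (0 to 24), Tlr6 (19 to 119) and Tlr9 (19 to 39) rest on few reads. In control macrophages Tlr1 (12 to 39 reads) and Tlr9 (19 to 40) were about as low.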
